A study of Homo sapiens with 3 samples.

Results

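The proteasome is described here through its transcripts in HEK293T, an established line of human embryonic kidney cells. Members were all gene rows whose symbol begins with PSMA to PSMG followed by a number, which gave 49 of the 23284 genes in the deposited table and 109 of its 41138 isoforms. They are the 20S core (PSMA and PSMB), the 19S regulatory particle (PSMC and PSMD), the activators (PSME) and the assembly factors and PI31 (PSMG and PSMF1). One of the 49, PSMC3IP, matches the name pattern but encodes a factor of meiotic recombination, not a proteasome subunit.

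Cells were transfected by a reverse lipid method with an siRNA against Arkadia, an siRNA against ESRP2 or a negative control siRNA. All were harvested 48 h after seeding, and none received TGF-beta. Arkadia (gene RNF111) is a ubiquitin ligase that acts in the TGF-beta pathway. ESRP2 is a splicing factor of epithelial cells. There was 1 library of polyadenylated RNA per siRNA, so there are no replicates and no tests: each difference is one between libraries and not between conditions.

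The proteasome degrades proteins marked with ubiquitin. Its 20S core is a barrel of alpha rings, which gate the entrance, around beta rings, which hold the proteolytic sites; the 19S particle binds ubiquitin chains, removes them and unfolds the substrate with a ring of ATPases. Dedicated chaperones build both particles, and the transcription factor NRF1, encoded by NFE2L1, is known to raise proteasome genes together through antioxidant response elements when proteasome activity is low. Interferon is known to replace the proteolytic beta subunits by immune counterparts.

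The core letters of the antioxidant response element, TGACNNNGC, were searched on both strands of the 250 bases before each RefSeq transcription start (GRCh38.p14). They stood in 13 of 53 members' promoters (24.5%), against 10.9% of 35116 promoters of all genes, and in 13 of the 43 members with an entry (30.2%), against 13.2% of 27305 genes. PSMA7, PSMB1, PSMB6, PSMB7, PSMD4 and PSMG3 had no entry. Examples follow from a core subunit (PSMA4), a lid subunit (PSMD3), an activator (PSME1) and a 19S chaperone with a match on each strand (PSMD9). They were chosen among members that passed the size of change used below. The capitals mark the match, on either strand of the gene.
PSMA4, chr15:78540640-78540688, plus strand: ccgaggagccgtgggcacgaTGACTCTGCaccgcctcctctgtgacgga
PSMD3, chr17:39980750-39980798, plus strand: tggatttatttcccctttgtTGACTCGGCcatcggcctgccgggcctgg
PSME1, chr14:24136088-24136136, plus strand: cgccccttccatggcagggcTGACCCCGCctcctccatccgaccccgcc
PSMD9, chr12:121888668-121888716, plus strand: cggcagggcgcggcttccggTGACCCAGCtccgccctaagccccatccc
PSMD9, chr12:121888621-121888669, plus strand: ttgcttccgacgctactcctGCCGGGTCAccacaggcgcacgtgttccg

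The 5 matches begin 126, 37, 86, 102 and 149 bases before the start site. Matches also stood before PSME4, PSMG1 and PSMG2, which passed against control, and before PSMB3, PSMC5, PSMD12 and PSME2, which did not. PSMB9 and PSMD5 had a match too, and neither reached a mean of 1 FPKM. A match describes letters in a window and is not evidence of binding.

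The level of a transcript is given as FPKM, the authors' fragment number scaled to transcript length and library size. One read on a transcript of 1 kb was worth 0.0823 to 0.114 FPKM. If each library was scaled to its own total, this implies 8.80 M reads with Arkadia siRNA, 12.2 M with ESRP2 siRNA and 11.7 M with control siRNA. The scaling is not given, so these may not be the true depths. RNF111 was at 1.15 FPKM with Arkadia siRNA, 7.65 with ESRP2 siRNA and 6.38 with control siRNA, and ESRP2 was at 21.2, 4.27 and 14.8 FPKM in the same order, so each targeted transcript was lowest in the library labelled with its siRNA. The authors' confidence intervals of RNF111 separated between Arkadia siRNA (0.50 to 1.82 FPKM) and control siRNA (3.15 to 9.59 FPKM). Those of ESRP2 overlapped between ESRP2 siRNA (0.0878 to 9.33 FPKM) and control siRNA (3.34 to 26.3 FPKM). Of 10 genes known from HEK293T cells, 10, 8 and 9 reached 1 FPKM in these libraries, with summed levels of 690, 569 and 636 FPKM. Of 16 markers of other cell types, 3, 1 and 3 reached 1 FPKM, 3, 4 and 1 were listed at 0, and their summed levels were 5.56, 4.38 and 6.67 FPKM.

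Proteasome genes were among the well expressed genes of these cells. Together the members took 1.05% of summed FPKM with Arkadia siRNA, 1.13% with ESRP2 siRNA and 0.991% with control siRNA. PSMA8, PSMB8, PSMB9, PSMB11 and PSMD5 did not reach a mean of 1 FPKM and did not enter the comparisons, which 44 members and 11870 genes in all did. In bulk RNA, fewer cells that make a transcript and less of it per cell cannot be told apart.

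**Figure D1:**
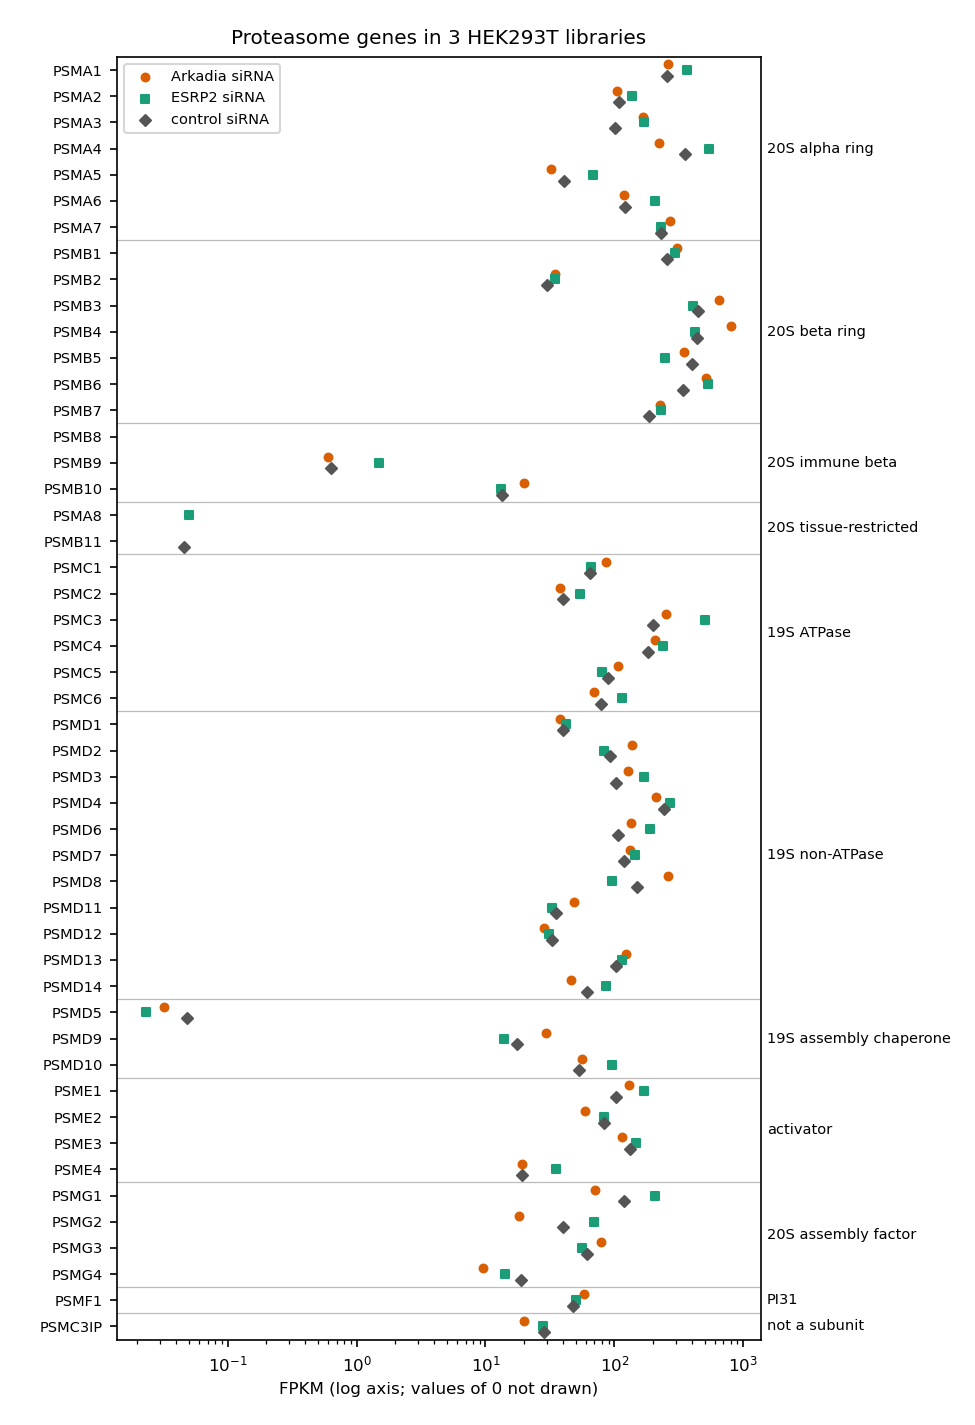
FPKM (log axis) of the 49 members in the Arkadia siRNA (circles), ESRP2 siRNA (squares) and control siRNA (diamonds) libraries, grouped by role. Most subunits lie above 10 FPKM in each library, while PSMA8, PSMB8, PSMB9, PSMB11 and PSMD5 lie near or at 0.

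With ESRP2 siRNA more proteasome genes were higher than lower against control, and with Arkadia siRNA the calls went both ways. Here rose and fell mean past 1.5-fold on the scale log2((FPKM + 1)/(FPKM + 1)), which understates changes of low genes. With Arkadia siRNA 5 of 44 members rose and 4 fell, beside 9.81% higher and 11.8% lower over all genes. In the ESRP2 siRNA library 13 rose and 2 fell, where the shares over all genes were 19.9% and 11.4%. The median log2 ratio of the members was 0.20 with Arkadia siRNA, beside -0.02 over all genes, and 0.20 with ESRP2 siRNA, beside 0.12 over all genes. Both comparisons use the same control library, so their values are set side by side and not related to each other. Against each other, the Arkadia siRNA library had 5 members higher and 10 lower than the ESRP2 siRNA library, where 21.2% and 30.8% of all genes were so, with a median of -0.17 beside -0.14 over all genes.

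Past 2-fold, with Arkadia siRNA no member rose (1.68% of all genes) and PSMG2 alone fell (2.24%), and with ESRP2 siRNA PSMC3 alone rose (5.45%) and no member fell (2.42%). Between Arkadia and ESRP2 siRNA PSMD8 and PSMD9 were more than 2-fold higher (8.9% of all genes) and PSMA4, PSMA5, PSMG1 and PSMG2 more than 2-fold lower (15.5%).

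In none of the 3 comparisons did the authors' confidence intervals of a member separate: 0 of 44, where 0.438% of all genes separated between Arkadia and control siRNA, 1.28% between ESRP2 and control siRNA and 6.36% between Arkadia and ESRP2 siRNA. No member thus passed 1.5-fold with separate intervals, where over all genes 0.194% rose and 0.244% fell so with Arkadia siRNA, 0.868% rose and 0.413% fell so with ESRP2 siRNA, and 1.9% were higher and 4.47% lower between Arkadia and ESRP2 siRNA. The ESRP2 calls also moved with the scaling of the libraries. With libraries rescaled by the median of ratios, 14.5% of all genes were higher and 15.5% lower with ESRP2 siRNA, and the median of all genes was 0.01; of the members 11 rose and 2 fell. Rescaled to the upper quartile, 12.9% of all genes were higher and 17.3% lower, and 6 members rose and 2 fell with ESRP2 siRNA.

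**Figure D2:**
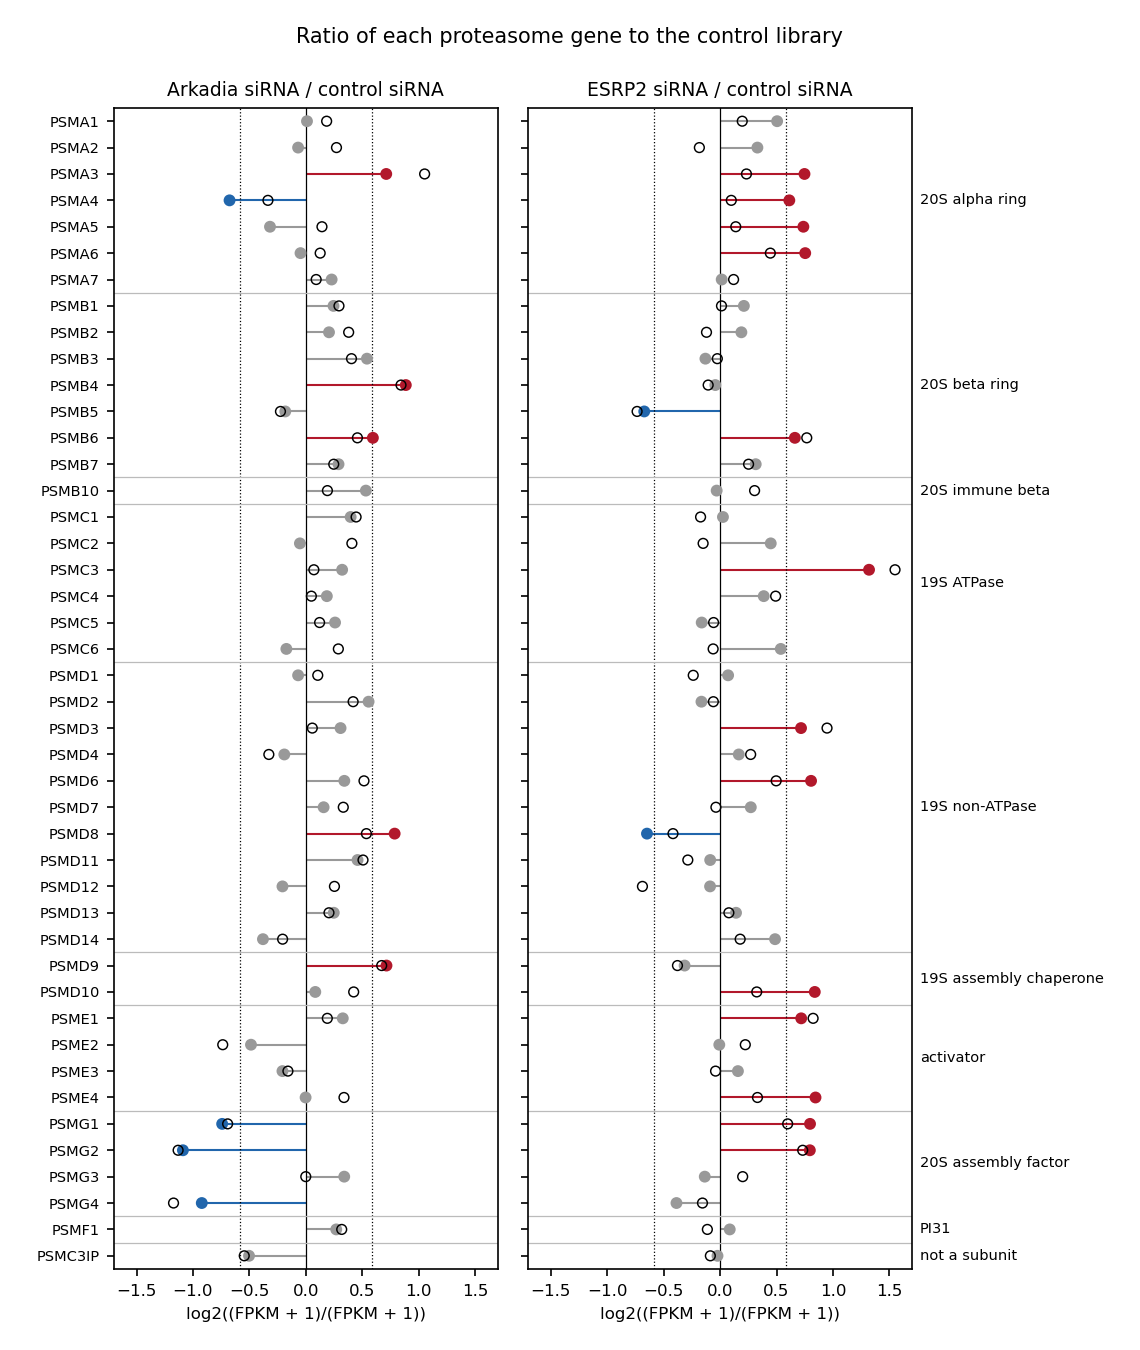
Log2 ratio of FPKM + 1 to the control library for the 44 members that entered, with Arkadia siRNA (left) and ESRP2 siRNA (right). Filled circles are ratios as deposited (red higher and blue lower past 1.5-fold, dotted lines; grey neither), and open circles are the same ratios after subtraction of the all-gene median at like GC content; the 7 alpha ring genes lie above 0 on the right as deposited (PSMA7 does not with rescaled libraries), and PSMG1, PSMG2 and PSMG4 are blue on the left.

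The alpha ring, whose 7 subunits form the gate of the core, was higher in the ESRP2 siRNA library as deposited, and less so once the GC trend described below was subtracted. All 7 ratios to control were above 0 there, with a median of 0.61, and 4 rose. In the Arkadia siRNA library 3 of 7 were above 0, with a median of -0.05, and 1 rose and 1 fell. Over all genes 57.9% of ratios were above 0 with ESRP2 siRNA and 48.6% with Arkadia siRNA. Past 1.5-fold, 19.9% of all genes rose with ESRP2 siRNA, and 9.81% rose and 11.8% fell with Arkadia siRNA. With the libraries rescaled by the median of ratios or to the upper quartile, 6 of 7 ratios with ESRP2 siRNA were above 0, all but PSMA7, with medians of 0.49 and 0.44, and 3 and 0 rose. After the GC subtraction 6 of 7 were above 0, all but PSMA2 (-0.18), the median was 0.14 and 0 rose. PSMA4 (chr15:78832747-78841563 on hg19) was at 221 FPKM with Arkadia siRNA, 541 with ESRP2 siRNA and 354 with control siRNA. It thus fell to 0.625 times control with Arkadia siRNA (log2 ratio -0.68) and rose 1.53-fold with ESRP2 siRNA (0.61), the widest spread among the alpha subunits.

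PSMA3 was at 167 FPKM with Arkadia siRNA, 171 with ESRP2 siRNA and 101 with control siRNA. It was higher in both knockdown libraries than in the 1 control library they share, with log2 ratios of 0.71 and 0.75. PSMA5, the lowest of the ring in every library, was at 32.5, 68.5 and 40.7 FPKM with Arkadia, ESRP2 and control siRNA, and PSMA6 was at 118, 206 and 122 FPKM. Both had ratios of -0.32 and -0.05 with Arkadia siRNA, which did not pass, and rose with ESRP2 siRNA, at 0.74 and 0.75. Against the ESRP2 siRNA library, the Arkadia siRNA library was lower for PSMA4 (-1.29), PSMA5 (-1.05) and PSMA6 (-0.80).

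PSMA1, at 259.8, 366 and 258 FPKM with Arkadia, ESRP2 and control siRNA, PSMA2, at 104, 138 and 109 FPKM, and PSMA7, at 269, 231 and 229 FPKM, did not pass. PSMA7 was the highest of the ring with Arkadia siRNA, and PSMA4 with ESRP2 and control siRNA. Within the ring the highest level was 8.27 times the lowest with Arkadia siRNA, 7.90 times with ESRP2 siRNA and 8.68 times with control siRNA. After the GC subtraction the 4 ESRP2 rises were between 0.10 and 0.44, and with Arkadia siRNA PSMA4 was -0.34, all under the size for a call, while PSMA3 with Arkadia siRNA was 1.05. Between the knockdown libraries PSMA4 was then -0.43, PSMA5 0.02 and PSMA6 -0.33, and none of these passed. PSMA6 has 4 named pseudogenes, PSMA2 has 3 and PSMA3 has 1, to which reads could have been divided.

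The beta ring had the same number of calls against control in each knockdown library. Of its 7 constitutive subunits 2 rose with Arkadia siRNA, with a median of 0.29, where 9.81% of all genes rose. There 6 of 7 ratios were above 0, beside 48.6% over all genes. With ESRP2 siRNA 1 rose and 1 fell, with a median of 0.19, where 19.9% of all genes rose and 11.4% fell. PSMB4 (chr1:151372041-151374412), a structural beta subunit, was at 805 FPKM with Arkadia siRNA, 423 with ESRP2 siRNA and 435 with control siRNA. It was the highest of all members in the Arkadia siRNA library, at 1.85-fold over control (0.89) and 1.91-fold over ESRP2 siRNA (0.93), while its authors' intervals of 397 to 1213, 205 to 639 and 213 to 656 FPKM overlapped.

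The proteolytic subunits did not move together. PSMB5, with the chymotrypsin-like site, was at 349 FPKM with Arkadia siRNA, 248 with ESRP2 siRNA and 396 with control siRNA. It fell with ESRP2 siRNA, at 0.626 times control (-0.67). PSMB6, with the caspase-like site, was at 511 FPKM with Arkadia siRNA, 535 with ESRP2 siRNA and 338 with control siRNA. It was higher in both knockdown libraries than in the 1 control library they share, with log2 ratios of 0.59 and 0.66. PSMB7, with the trypsin-like site, was at 227, 231 and 185 FPKM with Arkadia, ESRP2 and control siRNA, and did not pass.

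PSMB3, a structural subunit, was at 653 FPKM with Arkadia siRNA, 409 with ESRP2 siRNA and 448 with control siRNA, a difference that passed only between both knockdown libraries (0.67). PSMB1 was at 304, 297 and 256 FPKM, and PSMB2, the lowest beta subunit in each library, at 34.9, 34.4 and 30.1 FPKM. Neither passed in any comparison. The rises of PSMB6 with ESRP2 siRNA (0.77) and of PSMB4 with Arkadia siRNA (0.84), and the fall of PSMB5 (-0.74), passed after the GC trend was subtracted, while PSMB6 with Arkadia siRNA (0.46) and PSMB3 between the knockdown libraries (0.43) did not. The rise of PSMB6 with ESRP2 siRNA was 0.54 and 0.49 under both rescalings and then did not pass. Its rise with Arkadia siRNA did not pass with libraries rescaled to the upper quartile.

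The immune and tissue-restricted core subunits were low or at 0 in each library. PSMB8, the immune counterpart of PSMB5, was listed at 0 in all 3 libraries. The authors' upper bound was 0.226 FPKM in each, and 3 reads would give 0.163 FPKM in the control library. PSMB9, the counterpart of PSMB6, was at 0.606 FPKM with Arkadia siRNA, 1.49 with ESRP2 siRNA and 0.639 with control siRNA, or 0.119%, 0.279% and 0.189% of PSMB6. Both PSMB8 and PSMB9 lie in the MHC region, and the isoform table held 16 rows for PSMB8 and 8 for PSMB9, of which 7 were at 0 in every library. Whether reads were divided or lost among these rows was not tested. PSMB10, the counterpart of PSMB7, was at 19.9 FPKM with Arkadia siRNA, 13.1 with ESRP2 siRNA and 13.4 with control siRNA. That was 8.77%, 5.69% and 7.26% of PSMB7, and it did not pass against control. PSMA8, known from testis, was at 0, 0.0498 and 0 FPKM, and PSMB11, known from thymus, at 0, 0 and 0.0457 FPKM, below 3 reads in each library.

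Of the 6 ATPases, which unfold substrates at the base of the 19S particle, 1 rose with ESRP2 siRNA and none passed with Arkadia siRNA. Over all genes 19.9% rose with ESRP2 siRNA, and 9.81% rose and 11.8% fell with Arkadia siRNA. PSMC3 (chr11:47440320-47448024) was at 249.9 FPKM with Arkadia siRNA, 499.9 with ESRP2 siRNA and 199.7 with control siRNA. Its 2.5-fold rise with ESRP2 siRNA (log2 ratio 1.32) was the largest of any member against control and grew to 1.55 after the GC subtraction. The authors' intervals were 132 to 367 FPKM with Arkadia siRNA, 266 to 734 with ESRP2 siRNA and 104 to 295 with control siRNA, which overlapped. With Arkadia siRNA PSMC3 had a log2 ratio of 0.32 to control and -0.997 to ESRP2 siRNA.

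The other ATPases had ratios to control between -0.16 and 0.54 with ESRP2 siRNA and between -0.17 and 0.40 with Arkadia siRNA. PSMC2, the lowest ATPase, was at 38.1 FPKM with Arkadia siRNA, 54.4 with ESRP2 siRNA and 39.6 with control siRNA. PSMC6 was at 69.7, 115 and 78.7 FPKM, and was lower with Arkadia than with ESRP2 siRNA (-0.71, and 0.36 after the GC subtraction). PSMC1, at 85.4, 65.8 and 64.6 FPKM, has 13 named pseudogenes, the most of any member. PSMC4 was at 207, 237 and 181 FPKM and PSMC5 at 107, 79.9 and 89.6 FPKM.

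Among the 11 non-ATPase subunits 1 rose with Arkadia siRNA, and 2 rose and 1 fell with ESRP2 siRNA. These counts lie near the shares of all genes, 9.81% higher with Arkadia siRNA and 19.9% higher and 11.4% lower with ESRP2 siRNA. PSMD8 (chr19:38865190-38874464), a subunit of the lid, was at 261 FPKM with Arkadia siRNA, 95.8 with ESRP2 siRNA and 151 with control siRNA. It rose 1.73-fold with Arkadia siRNA (0.79) and fell to 0.635 times control with ESRP2 siRNA (-0.65), so that the libraries of both knockdowns differed 2.72-fold (1.44). Their authors' intervals, 137 to 383 FPKM and 49.0 to 142 FPKM, overlapped by a few FPKM. After the GC subtraction its ratios were 0.54 with Arkadia siRNA and -0.42 with ESRP2 siRNA, neither past the size for a call.

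PSMD3, a lid subunit, was at 127 FPKM with Arkadia siRNA, 169 with ESRP2 siRNA and 103 with control siRNA. PSMD6, also of the lid, was at 135, 187 and 107 FPKM in the same libraries. Both rose with ESRP2 siRNA, by log2 ratios of 0.72 and 0.81, and PSMD3 alone passed after the GC subtraction (0.95; PSMD6 0.50). PSMD2, a scaffold subunit that binds ubiquitin-like domains, was at 137 FPKM with Arkadia siRNA, 82.7 with ESRP2 siRNA and 92.8 with control siRNA. It passed between both knockdown libraries, higher with Arkadia siRNA (0.72). PSMD14, the deubiquitinase of the lid, was at 46.4 FPKM with Arkadia siRNA, 85.5 with ESRP2 siRNA and 60.7 with control siRNA, and was lower with Arkadia than with ESRP2 siRNA (-0.87). Neither difference between the knockdown libraries passed after the GC subtraction, with 0.48 for PSMD2 and -0.39 for PSMD14.

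PSMD4, a ubiquitin receptor, was at 211, 270 and 240 FPKM with Arkadia, ESRP2 and control siRNA and was the highest non-ATPase subunit with ESRP2 and control siRNA. PSMD12 was the lowest in each library, at 28.5, 31.0 and 33.0 FPKM. PSMD7 was at 133, 144 and 119 FPKM, PSMD11 at 48.7, 33.0 and 35.2 FPKM and PSMD13 at 122, 114 and 103 FPKM, and none of these passed in any comparison. PSMD1, the other large scaffold, was at 37.9, 41.8 and 39.8 FPKM in total, and its isoforms are described below.

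The chaperones that build the 19S base did not move together. PSMD9 was at 29.4 FPKM with Arkadia siRNA, 13.9 with ESRP2 siRNA and 17.5 with control siRNA. It rose with Arkadia siRNA (0.71, and 0.67 after the GC subtraction), and was 2.12-fold the level with ESRP2 siRNA (1.03). PSMD10, known as gankyrin, was at 56.1 FPKM with Arkadia siRNA, 95.3 with ESRP2 siRNA and 52.8 with control siRNA. It rose with ESRP2 siRNA (0.84, and 0.32 after the GC subtraction). PSMD5, a chaperone of the same step, was at 0.0322, 0.0234 and 0.0486 FPKM, or below 3 reads in each library.

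Of the activators, which open the alpha gate in place of the 19S particle, none passed with Arkadia siRNA and 2 rose with ESRP2 siRNA. PSME1 was at 130.2 FPKM with Arkadia siRNA, 171 with ESRP2 siRNA and 104 with control siRNA, a log2 ratio of 0.72 with ESRP2 siRNA. Its partner in the PA28 ring, PSME2, was at 59.5, 83.2 and 83.7 FPKM and lowest with Arkadia siRNA (-0.49, not past the size). PSME1 was thus 219% of PSME2 with Arkadia siRNA, 206% with ESRP2 siRNA and 124% with control siRNA.

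PSME4, the large single-chain activator, was at 19.3 FPKM with Arkadia siRNA, 35.5 with ESRP2 siRNA and 19.3 with control siRNA. It was high in the ESRP2 siRNA library alone (0.84). PSME3, the nuclear activator, was at 114, 147 and 132 FPKM and did not pass. All 4 activators were lower with Arkadia than with ESRP2 siRNA by ratio, with a median of -0.43, and PSME4 alone passed (-0.85). Over all genes 44.2% of the ratios between these libraries were above 0. After the GC subtraction PSME1 was 0.82 and PSME4 0.33 with ESRP2 siRNA, and PSME4 was 0.01 between the knockdown libraries.

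The 20S assembly factors with a PSMG name held 3 of the 4 falls in the Arkadia siRNA library, where 11.8% of all genes were lower. The authors' intervals of each overlapped those in control. PSMG1 and PSMG2 form a pair that arranges the alpha ring. PSMG1 (chr21:40547384-40555440) was at 70.1 FPKM with Arkadia siRNA, 205 with ESRP2 siRNA and 118 with control siRNA. PSMG2 (chr18:12658738-12725739) was at 18.1 FPKM with Arkadia siRNA, 69.6 with ESRP2 siRNA and 39.7 with control siRNA. Both were lowest with Arkadia siRNA and highest with ESRP2 siRNA.

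PSMG1 fell to 0.595 times control with Arkadia siRNA (-0.74) and rose 1.74-fold with ESRP2 siRNA (0.80), and PSMG2 fell to 0.457 times control (-1.09) and rose 1.75-fold (0.79). Between the knockdown libraries the log2 ratios were -1.54 for PSMG1 and -1.88 for PSMG2, the most negative of all members. The authors' intervals in the Arkadia and ESRP2 siRNA libraries were 31.9 to 108 and 100.3 to 310 FPKM for PSMG1, and 4.77 to 31.6 and 27.6 to 112 FPKM for PSMG2, which overlapped at their ends. After the GC subtraction these calls against control held, at -0.69 and 0.60 for PSMG1 and -1.13 and 0.73 for PSMG2. The PSMG2 locus in the table overlaps CEP76.

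PSMG3 and PSMG4 form the other pair. PSMG3 was at 78 FPKM with Arkadia siRNA, 55.8 with ESRP2 siRNA and 61.4 with control siRNA, and did not pass. PSMG4 was at 9.53 FPKM with Arkadia siRNA, 14.3 with ESRP2 siRNA and 18.95 with control siRNA, and fell with Arkadia siRNA (-0.92, and -1.17 after the GC subtraction). PSMG3 was 818% of PSMG4 with Arkadia siRNA, 391% with ESRP2 siRNA and 324% with control siRNA. PSMF1, encoding the inhibitor and transport factor PI31, was at 57.6, 50.6 and 47.6 FPKM and did not pass. POMP, an assembly factor without a PSM name, was at 55.6 FPKM with Arkadia siRNA, 67.2 with ESRP2 siRNA and 46.1 with control siRNA. Its ratios to control, 0.27 with Arkadia siRNA and 0.53 with ESRP2 siRNA, were above 0 and did not pass.

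**Figure D3:**
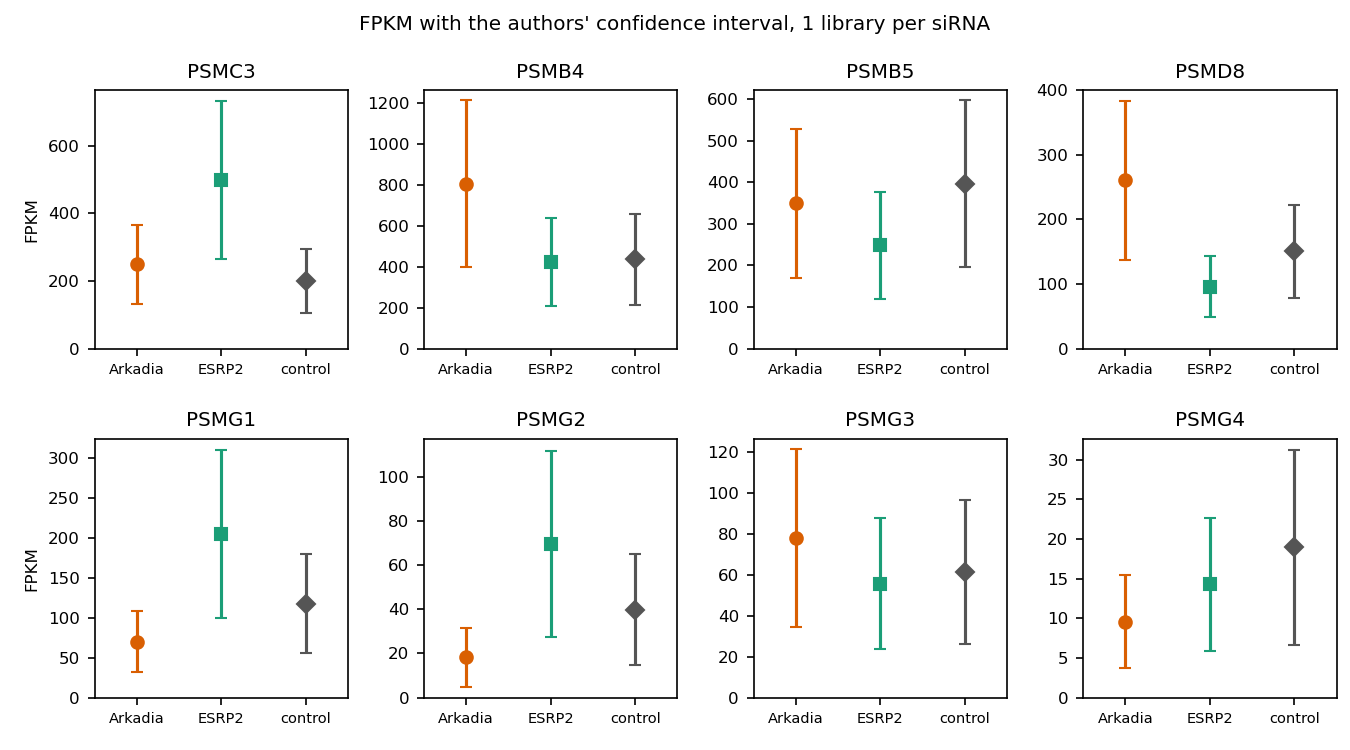
FPKM of 8 members in the Arkadia siRNA, ESRP2 siRNA and control siRNA libraries; bars are the authors' confidence intervals for 1 library each, not a spread of replicates. PSMC3 is highest with ESRP2 siRNA, PSMB4 and PSMD8 with Arkadia siRNA, PSMG1 and PSMG2 run lowest with Arkadia and highest with ESRP2 siRNA, and the intervals of each gene overlap in every pair of libraries.

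PSMC3IP, the recombination factor, was at 19.8 FPKM with Arkadia siRNA, 27.9 with ESRP2 siRNA and 28.4 with control siRNA, and did not pass. Without it the 43 remaining members had the same counts of rises and falls against control.

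A trend over base composition ran through all genes and through the members. Over all genes, Spearman's rho between the GC content of the longest isoform and the ratio to control was 0.56 with Arkadia siRNA and -0.64 with ESRP2 siRNA, and over the 44 members it was 0.37 and -0.42. These are descriptions over genes that share the same libraries. In the decile of genes poorest in GC, centred on 37.5%, the median ratio was -0.46 with Arkadia siRNA and 0.60 with ESRP2 siRNA; in the richest decile, at 64.4%, it was 0.34 and -0.49. Members ranged from 37.2% to 60.1% GC, and the 13 that rose with ESRP2 siRNA had a median of 46.5%.

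When the median of all genes in the same GC decile was subtracted, 3 members rose and 4 fell with Arkadia siRNA and 6 rose and 2 fell with ESRP2 siRNA. Over all genes 6.35% were then higher and 7.01% lower with Arkadia siRNA, and 9.2% higher and 7.7% lower with ESRP2 siRNA. The members past the size were then PSMA3, PSMB4 and PSMD9 (higher) and PSME2, PSMG1, PSMG2 and PSMG4 (lower) with Arkadia siRNA. With ESRP2 siRNA they were PSMB6, PSMC3, PSMD3, PSME1, PSMG1 and PSMG2 (higher) and PSMB5 and PSMD12 (lower). The part of base composition in the remaining differences was not tested.

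**Figure D4:**
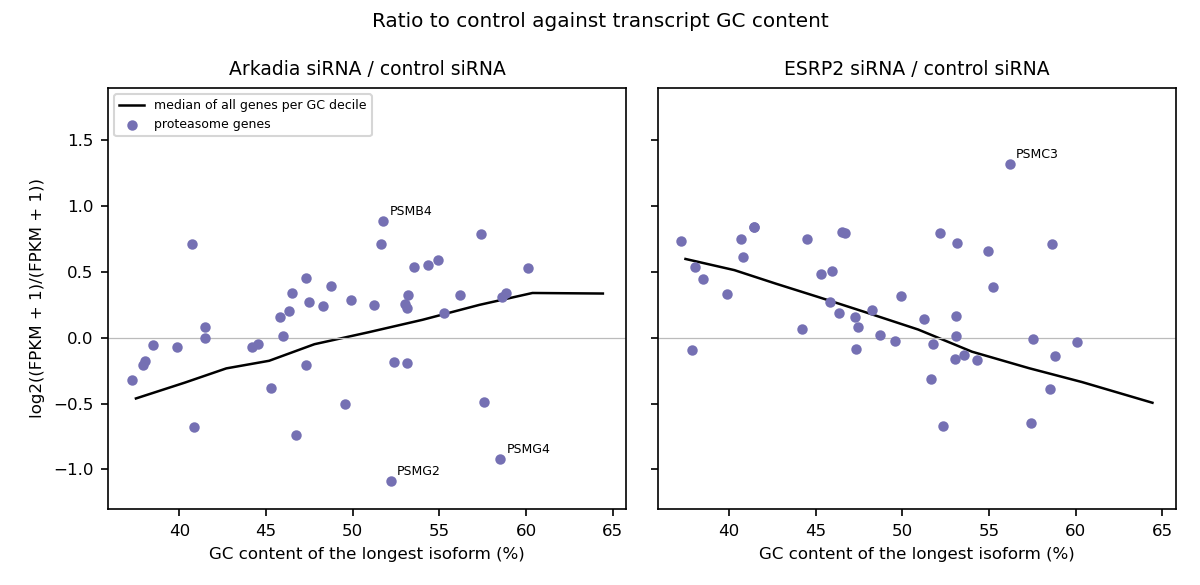
Log2 ratio of FPKM + 1 to the control library against the GC content of the longest isoform (percent), for Arkadia siRNA (left) and ESRP2 siRNA (right). Points are the 44 members and the line joins the medians of all genes per GC decile; the line climbs from -0.46 to 0.34 on the left and drops from 0.60 to -0.49 on the right, with PSMG2 and PSMG4 far under it on the left and PSMC3 far above it on the right.

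Large changes of isoform use were seen in a share of members near that of all genes, and the members' median change was below that of all genes. The usage change of a gene is 0 where its isoforms keep their shares and 1 where they are fully exchanged, and 21 members had at least 2 isoforms and a summed level of 5 FPKM in each library. Changes of 0.25 or more were seen in 3 of 21 members between Arkadia and control siRNA, where 17.1% of all genes had one, in 3 between ESRP2 and control siRNA, where 20% had one, and in 4 between Arkadia and ESRP2 siRNA, where 26.3% had one. The median change of the members was 0.03 in both comparisons with control, beside 0.08 and 0.09 over all genes with Arkadia and ESRP2 siRNA.

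PSMG2 had the largest change. Its isoform NM_147163 was at 3.66 FPKM with Arkadia siRNA, 68.0 with ESRP2 siRNA and 32.7 with control siRNA, or 20.2%, 97.7% and 82.4% of the gene. NM_020232 was at 14.5, 1.58 and 7.01 FPKM in the same libraries. The fall of PSMG2 with Arkadia siRNA was thus a fall of NM_147163 while NM_020232 was higher than in control with overlapping intervals, with usage changes of 0.62 to control and 0.78 to ESRP2 siRNA. The authors' intervals of NM_147163 separated between Arkadia siRNA (0 to 10.5 FPKM) and ESRP2 siRNA (26.8 to 110 FPKM), and overlapped with control (9.77 to 55.7 FPKM).

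The PSMG2 isoforms start at different places. In GENCODE 29 on GRCh38 the transcript matched to NM_147163 begins at 12658738 on chromosome 18, has 7 exons and 699 coding bases, and the one matched to NM_020232 begins at 12702426, with 7 exons and 792 coding bases. RefSeq places a start at each site, at 12658738 and, inside the first exon of the other isoform, at 12703042, so 44304 bases lie between them. The first exon of the upstream transcript is short and ends at 12658773. Reads over either start were not analysed, and whether use of the starts differed was not tested. The 250 bases before the upstream start, the annotated start of NM_147163, are 66.4% GC with 25 CpG. Those before the downstream start are 73.6% GC with 29 CpG. The upstream window holds a TGACNNNGC match, in capitals, 39 bases before the start, and the downstream window holds none.
PSMG2, chr18:12658488-12658737 on GRCh38.p14, plus strand: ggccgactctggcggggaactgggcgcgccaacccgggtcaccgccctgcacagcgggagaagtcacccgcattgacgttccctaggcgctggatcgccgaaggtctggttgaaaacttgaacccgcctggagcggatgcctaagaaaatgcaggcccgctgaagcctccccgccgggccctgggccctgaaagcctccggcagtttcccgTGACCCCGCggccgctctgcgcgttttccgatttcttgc

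PSMD1, whose total hardly differed, had its isoforms divided otherwise in the Arkadia siRNA library. The coding isoform NM_002807 was at 16.9 FPKM with Arkadia siRNA, 40.7 with ESRP2 siRNA and 39.8 with control siRNA. The isoform listed as non-coding, NR_034059, was at 21.0, 1.19 and 0.00711 FPKM, or 55.4%, 2.83% and 0.0179% of the gene. Usage changes were 0.55 between Arkadia and control siRNA and 0.53 between Arkadia and ESRP2 siRNA. The authors' interval of NR_034059 with Arkadia siRNA, 7.47 to 34.5 FPKM, lay above those with ESRP2 siRNA (0 to 4.79 FPKM) and control siRNA (given as 0 to 0). The control interval leaves out its own estimate of 0.00711 FPKM, so any lower bound above 0 would lie above it.

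PSMB2 had the like pattern in the ESRP2 siRNA library. NM_001199779 was at 1.91 FPKM with Arkadia siRNA, 15.0 with ESRP2 siRNA and 0.000433 with control siRNA, and NM_002794 at 33.0, 19.2 and 30.0 FPKM. Each of these PSMD1 and PSMB2 isoform pairs matches a single GENCODE 29 transcript, so the sequence in which they differ could not be shown. The usage change was 0.44 between ESRP2 and control siRNA, and the interval of NM_001199779 with ESRP2 siRNA, 3.22 to 26.8 FPKM, lay above that in control, given as 0 to 0. That control interval also leaves out its own estimate, 0.000433 FPKM. NM_001135750 of PSMG4 was listed at 0 in both knockdown libraries (0 to 0.676 FPKM) and at 5.64 FPKM in control (0 to 14.9 FPKM), intervals that overlapped, with usage changes of 0.30 with Arkadia siRNA and 0.36 with ESRP2 siRNA. PSMC3IP passed with ESRP2 siRNA (0.31), and PSMA5 between the knockdown libraries (0.28), as NM_002790 made 98% of it with Arkadia siRNA, 70.4% with ESRP2 siRNA and 87.4% with control siRNA.

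PSMA3, which was higher in both knockdown libraries than in control, did not pass the usage threshold, with changes of 0.13 with Arkadia siRNA and 0.18 with ESRP2 siRNA. The coding isoform NM_002788 was at 73.1 FPKM with Arkadia siRNA, 45.2 with ESRP2 siRNA and 31.7 with control siRNA. NR_038123, listed as non-coding, was at 73.5, 112 and 48.6 FPKM, or 44.1%, 65.9% and 48.0% of the gene. It lacks exon 2, of 83 wholly coding bases, a length that leaves 2 on division by 3. That exon is shown in capitals with 20 coding bases of the neighbouring exons on each side.
PSMA3, exon 2, chr14:58247750-58247832 on GRCh38, plus strand: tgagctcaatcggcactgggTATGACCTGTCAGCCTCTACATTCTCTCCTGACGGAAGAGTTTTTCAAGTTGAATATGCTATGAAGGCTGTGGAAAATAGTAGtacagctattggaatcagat

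Isoform levels are the authors' estimates from reads shared between isoforms, and junction reads were not analysed here. The share of all isoforms with separate intervals is not reported here. With a summed level of 20 FPKM asked in each library, PSMD1 alone passed with Arkadia siRNA and PSMB2 alone with ESRP2 siRNA, since PSMG2, PSMG4 and PSMC3IP lie below that level in at least 1 library.

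**Figure D5:**
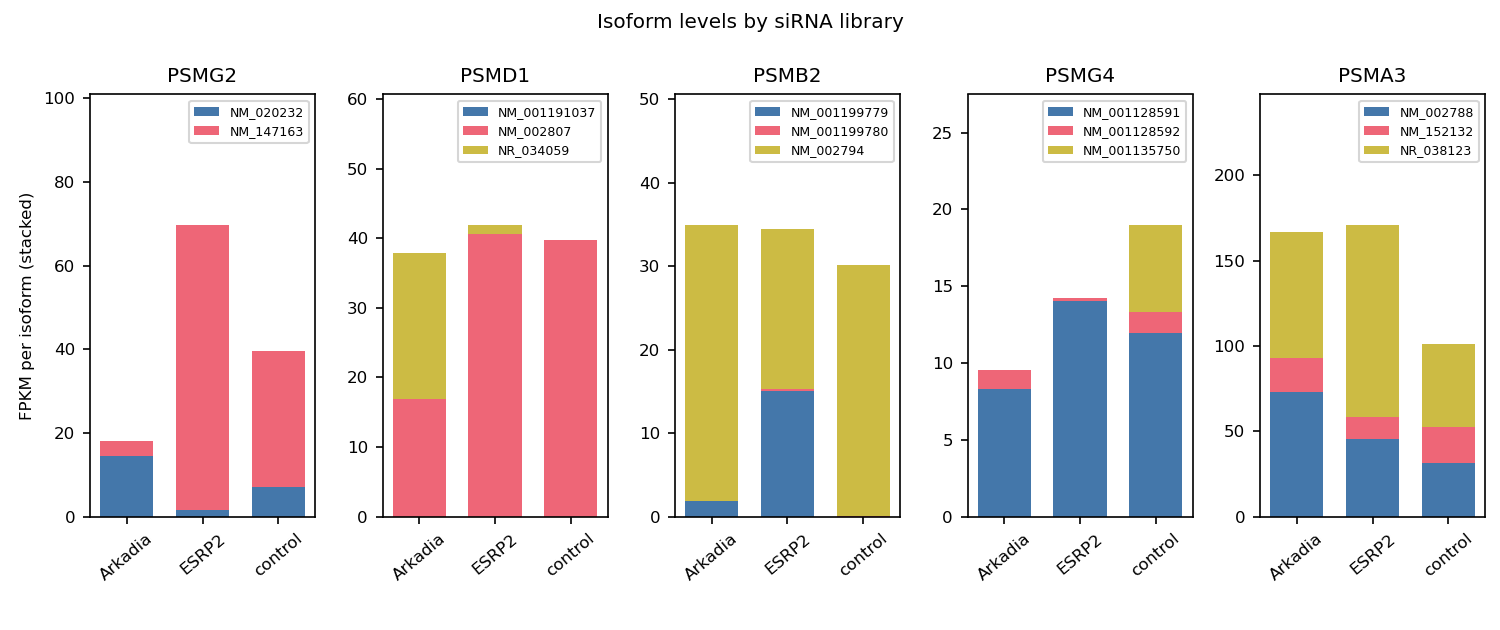
Stacked FPKM of each isoform of PSMG2, PSMD1, PSMB2, PSMG4 and PSMA3 in the Arkadia siRNA, ESRP2 siRNA and control siRNA libraries, with no replicates. NM_147163 fills most of the PSMG2 bar with ESRP2 and control siRNA but 20.2% of it with Arkadia siRNA, and NR_034059 of PSMD1 is visible mainly with Arkadia siRNA, where it makes 55.4% of the bar.

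Of the 11 entered members with a TGACNNNGC match before a start site, 1 rose and 3 fell with Arkadia siRNA (median -0.002), and 6 rose and none fell with ESRP2 siRNA (median 0.61). Of the 27 with an entry and no match, 3 rose and 1 fell with Arkadia siRNA (median 0.16), and 6 rose and 2 fell with ESRP2 siRNA (median 0.19). Over all genes the Arkadia siRNA library had 9.81% higher and 11.8% lower, and the ESRP2 siRNA library had 19.9% higher and 11.4% lower. PSMA4 and PSME4 no longer passed with ESRP2 siRNA after the GC subtraction, nor did PSMA3, PSMA5, PSMA6, PSMD6 and PSMD10, which have no match. With libraries rescaled to the upper quartile, PSMA4, PSMD3 and PSME1 no longer passed with ESRP2 siRNA, nor did PSMA3, PSMA5 and PSMA6 without a match. Whether the match goes with the ratio was not tested. PSMA4, PSMD3 and PSME1, shown above, are among those that rose with ESRP2 siRNA, and PSMD9 is the one that rose with Arkadia siRNA.

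Genes of proteasome proteins without a PSM name were also compared. Over all genes the shares were 9.81% higher and 11.8% lower with Arkadia siRNA and 19.9% higher and 11.4% lower with ESRP2 siRNA, with medians of -0.02 and 0.12, and these stand beside the counts of each list that follows. Of 11 measured, none rose and 2 fell with Arkadia siRNA (median -0.23), and 5 rose and 1 fell with ESRP2 siRNA (median 0.53). USP14, a deubiquitinase that docks on the 19S base, was at 22.2 FPKM with Arkadia siRNA, 86.8 with ESRP2 siRNA and 35.3 with control siRNA. UCHL5, the other docked deubiquitinase, was at 23.9, 84.8 and 36.8 FPKM. Both were lowest with Arkadia siRNA (-0.64 and -0.60) and highest with ESRP2 siRNA (1.28 and 1.18), the same order of libraries as in PSMG1 and PSMG2. The part of the GC trend in these and the following genes was not tested.

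TXNL1, a thioredoxin-like protein of the 19S particle, was at 32.3, 126 and 44.1 FPKM with Arkadia, ESRP2 and control siRNA and rose with ESRP2 siRNA (1.49). Its intervals, and those of USP14, separated between Arkadia and ESRP2 siRNA. SHFM1, the smallest lid subunit, was at 292, 483 and 232 FPKM and rose with ESRP2 siRNA (1.05). ADRM1, the ubiquitin receptor that holds UCHL5, was at 101 FPKM with Arkadia siRNA, 46.4 with ESRP2 siRNA and 79.6 with control siRNA, and fell with ESRP2 siRNA (-0.77). PAAF1, which binds ATPases of the 19S particle, was the remaining rise with ESRP2 siRNA (0.71).

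The genes around NRF1 were mostly under the size for a call. NFE2L1 was at 27.5, 20.2 and 21.3 FPKM with Arkadia, ESRP2 and control siRNA and did not pass. Of 11 entered, none rose and 1 fell with Arkadia siRNA (SEL1L, an adaptor of the ERAD ligase, -0.63), and 1 rose and 2 fell with ESRP2 siRNA. The rise was NGLY1 (0.67), the glycosidase that processes NRF1. The falls were KEAP1, the ligase adaptor that restrains NRF2, at 53.8, 14.9 and 42.6 FPKM (-1.46), and MAFK (-1.12), a small MAF partner.

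Of 13 shuttle factors and VCP partners, 2 rose with Arkadia siRNA, with UBQLN4 at 0.89, and 3 rose with ESRP2 siRNA, FAF2 (0.78), UBQLN1 (0.63) and RAD23B (0.62). RAD23B, a carrier of ubiquitinated proteins, was at 46.2 FPKM with Arkadia siRNA, 88.6 with ESRP2 siRNA and 57.1 with control siRNA. VCP, the segregase, was at 157, 97.0 and 134 FPKM and did not pass against control.

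Of 10 entered genes of antigen processing, 2 rose with Arkadia siRNA and none passed with ESRP2 siRNA. HLA-B was at 126, 94.3 and 73.1 FPKM with Arkadia, ESRP2 and control siRNA (0.77 with Arkadia siRNA), and HLA-C had 0.61. TAP1, the peptide transporter encoded beside PSMB9, was at 10.7, 7.39 and 8.80 FPKM. HLA genes share reads with their paralogs, so their split is uncertain.

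Of 6 ubiquitin and E1 genes, none passed with Arkadia siRNA and 3 rose with ESRP2 siRNA, beside 19.9% of all genes. RPS27A, which encodes ubiquitin fused to a ribosomal protein, was at 619, 1950.0 and 548 FPKM with Arkadia, ESRP2 and control siRNA (1.83), and its intervals separated between ESRP2 and control siRNA. UBB, a polyubiquitin gene, was at 2194, 4107 and 2134 FPKM (0.94), and UBA6, an E1 enzyme, had 0.64.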

How the data were processed

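Polyadenylated RNA of 3 HEK293T libraries, 1 per siRNA, was sequenced on an Ion PI chip, per the labels' protocols. The authors deposited FPKM with confidence bounds and a status per gene and per isoform, per the file headers. TopHat2 2.0.10, Bowtie2 2.1.0, Cufflinks 2.1.1, Cuffdiff and the build hg19 stand in the submitters' processing notes; how libraries were scaled, and whether strand was used, is not given in the sources used here. Reads were not analysed here, and depth was read from the FPKM of genes with 1 read, as if each library was scaled to its own total.

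A gene entered if its FPKM averaged 1 or more, its status was OK and its longest isoform had 300 nt or more. log2((FPKM + 1)/(FPKM + 1)) was computed over the whole table, a scale that understates changes of low genes, with 1.5-fold as the size for a call. With 1 library per group no test was made. Scripts used Python 3.11.15 with pandas 2.3.3 and were tested on simulated data. GC content was that of GENCODE 29 transcripts, matched through RefSeq accessions (49 of 49 members; 99.1% of entered genes had a value), promoters from RefSeq (GRCh38.p14), and no coordinate was converted. Gene positions are on hg19 unless GRCh38 is named, counted from 1. Of the members, 12 have a named pseudogene and 10 overlap another gene row, so their reads may be divided between loci.

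The members, lists, sizes and alternatives were chosen with earlier results of these data known. The usage change is the sum of the absolute differences in isoform share, divided by 2. Named with levels were members past 1.5-fold in any comparison, the proteolytic subunits, activators and assembly factors, the highest and lowest of each group, members past the isoform threshold, and in each list up to 4 genes per comparison with the largest changes past 1.5-fold. Further members and list genes (PSMC1, PSMC4, PSMC5, PSMA1, PSMA2, PSMB1, PSMD7, PSMD11, PSMD13, POMP, VCP, TAP1, NFE2L1) were named for their role. Values of some single list genes are not reported here. Alternatives for pseudocount, filter, scaling, GC, length, table and intervals are given at the end.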

Additional observations from a re-analysis of the deposited data

How the results depend on the processing

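Each group had 1 library, so no replicate could be left out; depth limits low members and minor isoforms. Among alternative values for single members past 1.5-fold, 314 stayed past it in the same direction, 33 no longer passed and 4 reversed, all between Arkadia and ESRP2 siRNA after the GC subtraction: PSMA5 0.02, PSMC6 0.36, PSMD10 0.10 and PSME4 0.011. No call of PSMB4, PSMB5, PSMD9, PSMG1, PSMG2 or PSMG4 was lost under any of these alternatives. The counts with intervals that did not overlap were 0 higher and 0 lower in each comparison. No paired analysis was possible because each group had a single library.

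Rises with ESRP2 siRNA numbered 6 under upper-quartile scaling and 6 after the GC subtraction, with 2 falls in each. With Arkadia siRNA 3 rose and 4 fell after the GC and 3 rose and 6 fell after the length subtraction. After the length subtraction 9.22% of all genes were higher and 11.1% lower with Arkadia siRNA. Between Arkadia and ESRP2 siRNA 9 members were higher and 9 lower under either rescaling. Over all genes 26.1% were higher and 25.2% lower by the median of ratios, and 26.3% higher and 25% lower by the upper quartile. The members' median with Arkadia siRNA was 0.084 with no filter and 0.089 after the length subtraction. With ESRP2 siRNA it was 0.074 by the median of ratios, 0.027 by the upper quartile and 0.088 after the GC subtraction, and between Arkadia and ESRP2 siRNA it was -0.014, -0.0081 and 0.015 (reversed). Other medians that reversed were those of the assembly factors with ESRP2 siRNA (-0.040 by the median of ratios, -0.086 by the upper quartile, -0.087 after length), the 19S with ESRP2 siRNA (-0.021 by the upper quartile, -0.059 after GC), the activators with Arkadia siRNA (0.016 after GC), and between Arkadia and ESRP2 siRNA the 20S core (0.13, 0.14 and 0.018) and the 19S (0.26 after GC). Usage counts were 1 with Arkadia and 1 with ESRP2 siRNA at a summed 20 FPKM, and 6 with ESRP2 siRNA at a change of 0.15. The shares of all genes at these usage settings are not reported here. The cause was not tested. Summing the isoform table gave the same members past 1.5-fold.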
